A study of Mus musculus with 9 samples.

Results

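The transcriptome described here is that of sciatic dorsal root ganglia from young, sham-operated mice. Its members are the 3 young sham libraries among the 9 libraries of the series, taken by the labelled age and treatment, and every identifier of the deposited table is described in them. The mice were C57BL/6, 8 to 10 weeks old, and were killed 24 h after sham surgery. Each library pooled whole ganglia of 2 mice, so the spread between replicates is a spread between pools. The ganglia are thus those of operated mice without nerve injury. The labels give no sex. The Y-linked genes Ddx3y and Uty were at 14.8 ± 0.985 and 3.64 ± 0.553 FPKM (SD, n = 3), and Xist was at 0.0200 FPKM or less in each library.

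Levels are given as FPKM, the fragments of a gene per 1000 bases of its length and per 1000000 fragments of the library, so that genes of different length can be compared. Libraries were made with the TruSeq mRNA kit, which selects polyadenylated RNA, from RNA with an integrity number over 7.5. With 1 group there is no contrast to test, so values are given per library with their mean ± SD (n = 3). Ranges of genes over the 3 libraries are compared as a description only. Overlapping ranges do not show that the genes are equal, since a gene may still be the higher one in every library. In RNA from whole tissue, fewer cells of a type and less RNA per cell cannot be told apart.

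A dorsal root ganglion holds the cell bodies of the sensory neurons of a spinal segment, each of which sends 1 axon branch to the skin, muscle or viscera and another to the spinal cord. Satellite glia wrap the cell bodies, and Schwann cells accompany or myelinate the axons. Capillaries, fibroblasts, resident macrophages and a connective tissue capsule make up the rest of the ganglion.

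The table held 45904 identifiers, of which 22571 were above 0 in at least 1 library and 18428 in all 3. A mean of 1 FPKM or more was reached by 13420 identifiers, among them 12000 of the 21186 protein-coding genes. Of the 13420 identifiers, 5765 reached 10 FPKM, 553 reached 100 FPKM and 18 reached 1000 FPKM. The median of the 13420 was 7.81 FPKM. Each library had between 20289 and 20482 identifiers above 0. The scaling totals that the values imply were 13185473, 12430208 and 11162117 fragments in replicates 1, 2 and 3, at which 1 fragment in a gene of 2000 bases is worth 0.0379 to 0.0448 FPKM. A gene of that length listed at 0 could thus have had up to 0.114 to 0.134 FPKM, the level of 3 fragments (counting error only).

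The libraries were alike over most genes, with Pearson correlations of log2 values between 0.976 and 0.978 over the 13420 identifiers. These are correlations across genes, which are not independent replicates. Between 1.40% and 1.53% of the identifiers differed by more than 2-fold between a pair of libraries. The median coefficient of variation (the SD as a percentage of the mean) was 9.68% for identifiers at 1 to 10 FPKM, 6.26% at 10 to 100 FPKM, 6.13% at 100 to 1000 FPKM and 8.98% for the 18 at 1000 FPKM or more. Counting error alone would give 7.87%, 3.26%, 1.51% and 0.498% at the fragment numbers of these classes, from the identifiers whose values came out as whole fragments. At 0.1 to 1 FPKM the median coefficient of variation was 36.1%, so that single low genes were measured loosely. Counts below of list members highest or lowest in a replicate are given without the share over all identifiers. They cannot be read as a trait of a list.

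**Figure D1:**
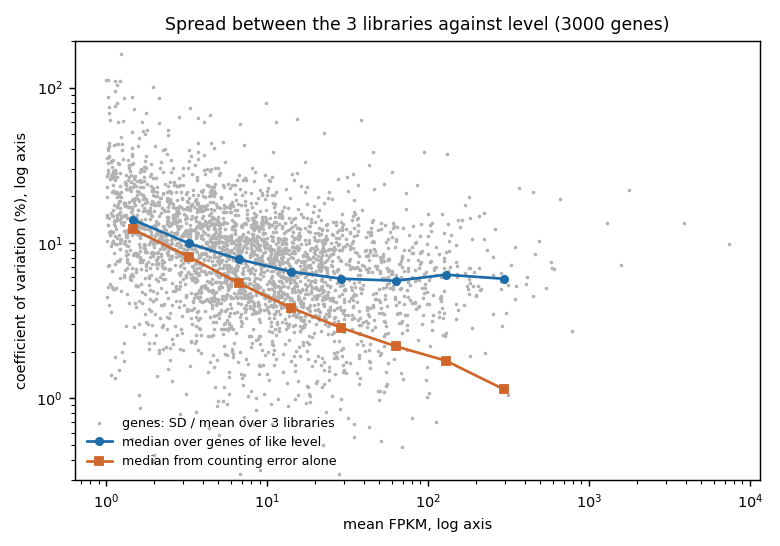
Coefficient of variation over the 3 libraries (vertical log axis, %) against the mean level (horizontal log axis, FPKM) for 3000 genes. Small grey points are genes, blue circles their median and orange squares the median that counting error alone would give; between 10 and 1000 FPKM the median spread stays near 6% while the counting error falls, and no median is drawn above that, where few genes lie.

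Defining markers were checked against the tissue label. All 8 neuronal and all 9 sensory neuron markers reached 1 FPKM, with medians of 1019 and 55.8 FPKM. So did all 5 satellite glia markers (median 36.1 FPKM), all 6 Schwann cell markers (152 FPKM), all 4 endothelial (6.39 FPKM), mural (8.32 FPKM) and fibroblast markers (14.2 FPKM), and all 4 macrophage markers (2.66 FPKM). Of the 3 markers each of T cells, oligodendrocytes and sympathetic neurons, and of the 2 of motor neurons, none reached 1 FPKM. Chat, which makes acetylcholine in motor neurons, and Hand2, a transcription factor of sympathetic neurons, were listed at 0 in every library. Dbh, which makes noradrenaline, was at 0.0282, 0.0598 and 0.0666 FPKM. Both astrocyte markers, Aldh1l1 and Aqp4, reached 1 FPKM, at 2.28 ± 0.226 and 2.70 ± 0.474 FPKM. Markers of other cell types were also represented. All 3 markers each of neutrophils (median 58.2 FPKM), red blood cells (43.1 FPKM), skeletal muscle (19.8 FPKM) and mast cells (3.54 FPKM) reached 1 FPKM. Of the markers of B cells 1 of 3, of adipocytes 1 of 2 and of cartilage and bone 0 of 3 reached that level. The muscle markers fell from replicate 1 to replicate 3, with Ckm at 39.0, 16.4 and 3.86 FPKM.

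Hox genes are active in a head-to-tail order along the body axis. Hoxa9, Hoxa10 and Hoxd8 were at 10.95 ± 1.12, 11.8 ± 0.860 and 12.6 ± 1.40 FPKM, and Hoxc10, Hoxd10 and Hoxd11 at 6.60 ± 0.612, 3.09 ± 0.708 and 1.40 ± 0.236 FPKM. The most posterior genes, Hoxa13, Hoxc13 and Hoxd13, and also Hoxc12 and Hoxd12, were listed at 0 in all 3 libraries. In all, 16 of 26 Hox genes reached 1 FPKM, against 12000 of all 21186 protein-coding genes. The sciatic nerve arises from lumbar segments, and Hoxd11 was the most posterior gene of the list at 1 FPKM or more.

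The highest values of all were those of mitochondrial genes, followed by genes of the neuronal cytoskeleton, of iron storage and of myelin. The 10 highest identifiers held 8.54%, 8.19% and 9.55% of the summed FPKM in replicates 1, 2 and 3, and the 100 highest held 24.2%, 24.1% and 25%. Of the 10 highest, 7 are encoded in mitochondrial DNA, led by mt-Co1, a subunit of cytochrome c oxidase, at 6943, 7092 and 8277 FPKM. mt-Cytb and mt-Nd1 followed at 5273 ± 615 and 3931 ± 529 FPKM. All mitochondrial identifiers together held 7.13%, 6.56% and 8.27% of the sum, most in replicate 3.

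Not all mitochondrial genes were high, although they are cut from shared precursor transcripts. Of the 13 that encode proteins, 7 were at 1000 FPKM or more and 6 under 10 FPKM. mt-Co2 was at 1.39 ± 0.0571 and mt-Co3 at 0.785 ± 0.253 FPKM, against 7437 ± 731 FPKM for mt-Co1, another subunit of the same complex. mt-Atp8 was listed at 0. The 6 low genes are neighbours among the protein-coding genes, at bases 7013 to 10173 of the mitochondrial genome, between mt-Co1 and mt-Nd4. How fragments that fit more than 1 place were handled was not given, so these low values are uncertain. What sets the low members apart in the table was not tested.

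The highest nuclear gene was Sncg, which encodes gamma-synuclein, a small protein abundant in peripheral neurons (chromosome 14, 34370274 to 34374789, build mm10). It was at 2243, 2672 and 2351 FPKM, above the range of every other nuclear gene. Fth1, the iron-storing ferritin heavy chain (chromosome 19, 9980598 to 9985098), was at 1774, 1912 and 1683 FPKM. Its range lay below that of Sncg. Across the 50 highest identifiers, the ranges of 44 of the 49 neighbouring pairs overlapped. These 50 comprised 8 mitochondrial genes, 39 nuclear protein-coding genes and 3 processed pseudogenes.

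**Figure D2:**
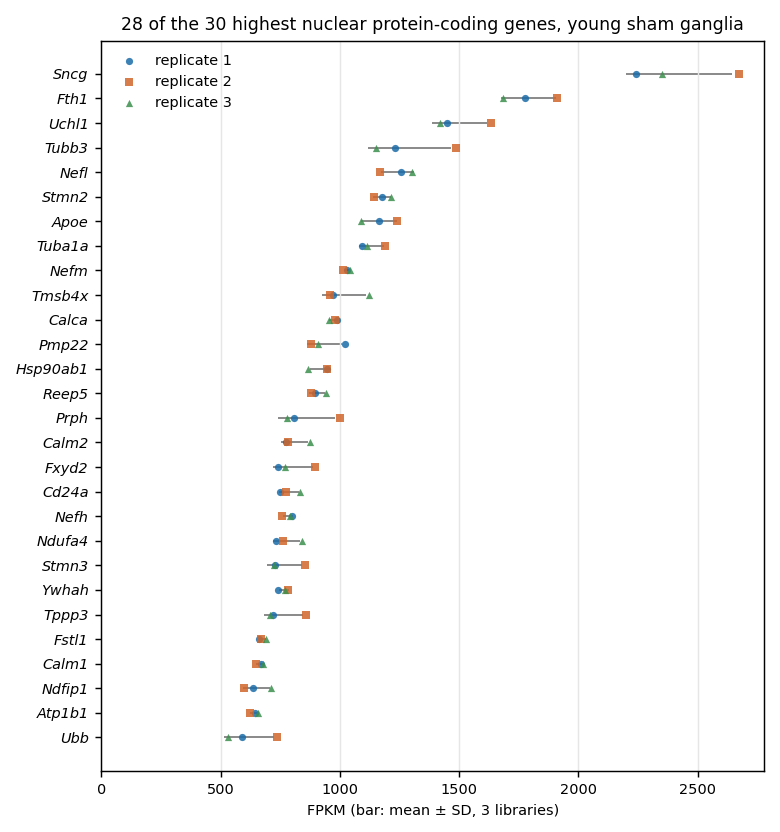
28 of the 30 nuclear protein-coding genes with the highest mean, 1 row per gene, with FPKM on the horizontal axis. Symbols are the 3 libraries and grey bars the mean ± SD; Sncg stands above the rest at 2243 to 2672 FPKM, and Ubb, the lowest shown, has a mean of 619 FPKM.

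Genes that all neurons use were the highest of the 49 gene lists examined. All 35 pan-neuronal genes reached 1 FPKM, 34 reached 10 FPKM and 20 reached 100 FPKM, with a median of 142 FPKM, while 43.0% of all identifiers at 1 FPKM or more reached 10 FPKM. The list held 4.43% of the summed FPKM. Uchl1, a ubiquitin hydrolase abundant in neurons, was at 1450, 1633 and 1421 FPKM. Tubb3, the neuronal beta-tubulin, was at 1232, 1485 and 1153 FPKM, and Stmn2, which regulates microtubules in growing axons, at 1176, 1141 and 1215 FPKM. The ranges of Tubb3 and Stmn2 overlapped. The lowest of the list was Map2, the microtubule protein of dendrites, at 10.5, 8.45 and 9.78 FPKM. Its axonal counterparts Map1b and Mapt were at 380 ± 36.8 and 49.3 ± 1.70 FPKM. Mature sensory neurons have axons and no dendrites. Whether this bears on the level of Map2 was not tested.

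The intermediate filaments of neurons took distinct levels. Nefl, the light neurofilament subunit, was at 1256, 1168 and 1302 FPKM. Nefm, the medium subunit, was at 1032, 1015 and 1041 FPKM, and Nefh, the heavy subunit that marks large myelinated neurons, at 800, 759 and 790 FPKM. The 3 ranges did not overlap. Prph, which encodes peripherin, the filament of small neurons, was at 809, 999 and 777 FPKM and overlapped that of Nefh. Ina, the filament of central neurons, was at 14.6 ± 0.874 FPKM. Genes of the transmitter release machinery were also high, with Snap25, a fusion protein of vesicles, at 288 ± 8.39 FPKM and Syn1, a protein on the surface of vesicles, at 95 ± 2.53 FPKM.

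Transcription factors that set sensory identity were lower. Of 19, 17 reached 1 FPKM and 10 reached 10 FPKM, with a median of 10.0 FPKM. Isl2 was the highest at 59.1, 73.6 and 60.2 FPKM, and Pou4f1, which is found in nearly all sensory neurons, followed at 55.7, 54.6 and 57.3 FPKM. Their ranges did not overlap, though by a narrow margin. Runx1, which directs nociceptors towards the non-peptidergic type, was at 9.06 ± 0.383 FPKM, and Runx3, which specifies proprioceptors, at 2.49 ± 0.0443 FPKM. The lowest were Etv4 and Eya1, at 0.897 ± 0.104 and 0.511 ± 0.143 FPKM.

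Peptides that nociceptors release spanned a wide range of levels. Of 27 neuropeptide and granule genes, 18 reached 1 FPKM and 4 reached 100 FPKM. Calca, which encodes the vasodilator calcitonin gene-related peptide, was at 990, 979 and 953 FPKM and was the 19th highest identifier of the table. Tac1, the precursor of substance P, was at 266, 257 and 255 FPKM. Scg2, a protein of secretory granules, was at 196, 191 and 202 FPKM, and Calcb, the second calcitonin gene-related peptide gene, at 105, 110 and 105 FPKM. The ranges of these 4 did not overlap. Adcyap1, the precursor of the peptide PACAP, was at 58.1, 76.2 and 54.3 FPKM. Of the peptides with a known rise after nerve injury, Gal was at 20.1 ± 5.04 and Npy at 1.44 ± 0.165 FPKM, while Vip was at 0.0587 FPKM in replicate 3 and listed at 0 in the other two. Iapp and Tac2 were listed at 0 in all libraries.

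Secretory genes of this list included known carriers of the cyclic AMP response element, the site through which the transcription factor CREB acts, and their promoters are shown for that reason. The table of RefSeq promoters (build GRCm38.p6, the same assembly as mm10) held 32851 promoters of 27025 genes, each running from 250 bases before to 50 bases after the start. The letters TGACGTCA, which read the same on both strands, stood in 1.79% of them. They stood in 5 of the 30 promoters (16.7%) that 22 of the 27 listed genes had, those of Cartpt, Chgb, Scg2, Sst and Ucn. Such a share was not particular to this list. It was 20% in C-fibre mechanoreceptor genes (1 of 5 promoters) and long noncoding RNAs (2 of 10), and 16.7% in the sympathetic list (2 of 12). Other lists had none, such as satellite glia (0 of 19). Known carriers were in the peptide list from the start, so its share is no independent result. The match is a description of the letters, not of binding. Below are the 120 bases before the start on the gene's strand, with the motif in capitals, for Scg2 (chr1:79440027-79440146, minus strand), Chgb (chr2:132781522-132781641, plus strand), Sst (chr16:23890845-23890964, minus strand) and Cartpt (chr13:99900684-99900803, minus strand).
Scg2: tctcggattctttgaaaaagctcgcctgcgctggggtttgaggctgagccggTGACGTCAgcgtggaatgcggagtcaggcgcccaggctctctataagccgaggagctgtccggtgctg
Chgb: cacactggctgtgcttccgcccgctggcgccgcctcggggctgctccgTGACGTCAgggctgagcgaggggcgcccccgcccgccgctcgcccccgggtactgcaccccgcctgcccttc
Sst: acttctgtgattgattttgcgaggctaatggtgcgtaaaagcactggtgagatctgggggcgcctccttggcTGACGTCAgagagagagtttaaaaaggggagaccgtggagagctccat
Cartpt: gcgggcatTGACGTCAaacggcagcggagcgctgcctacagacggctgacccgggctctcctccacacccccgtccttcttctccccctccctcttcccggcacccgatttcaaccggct
The motif begins 68, 72, 48 and 112 bases before the start in the order given. The genes that carry it differed widely in level. Scg2 was at 196 ± 5.50 FPKM and Chgb, another granule protein, at 53.2, 56.2 and 55.5 FPKM. Cartpt, a peptide precursor, was at 18.3, 12.8 and 12 FPKM. Sst, which encodes somatostatin and marks a small group of itch neurons, was at 7.98, 3.36 and 3.89 FPKM, and Ucn, the corticotropin-related peptide urocortin, at 0.163 ± 0.0139 FPKM.

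Over all promoters matched to a level, the share with TGACGTCA was 0.892% for genes listed at 0, 1.65% for means up to 1 FPKM, 2.63% at 1 to 10 FPKM, 3.39% at 10 to 100 FPKM and 4.21% at 100 FPKM or more. The motif contains a CpG, and the median ratio of observed to expected CpG moved with the level too, at 0.16, 0.37, 0.72, 0.78 and 0.74 in the same classes. The part of CpG content in the motif's shares was not tested. The TATA box, searched as TATAAA on the gene's strand within 45 to 21 bases before the start, stood in 2.01% of all promoters. Its share was 5.47% for genes listed at 0 and 2.83%, 1.27%, 0.742% and 2.00% in the classes of rising level. The promoters of 3 genes known from different cell types are shown with the box in capitals: Prph, the neuronal filament (chr15:99055054-99055173, plus strand), Nppb, a peptide of itch neurons (chr4:147985780-147985899, plus strand), and Myh4, a myosin of fast muscle (chr11:67237692-67237811, plus strand).
Prph: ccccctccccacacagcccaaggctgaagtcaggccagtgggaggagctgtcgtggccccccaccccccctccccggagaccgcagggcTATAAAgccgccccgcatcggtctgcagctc
Nppb: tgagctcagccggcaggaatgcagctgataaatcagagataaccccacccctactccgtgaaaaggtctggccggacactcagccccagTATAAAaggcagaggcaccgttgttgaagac
Myh4: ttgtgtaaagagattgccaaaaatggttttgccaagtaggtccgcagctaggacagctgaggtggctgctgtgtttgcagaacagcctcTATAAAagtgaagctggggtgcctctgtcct
In all 3 the box begins 31 bases before the start. Prph had a mean of 862 ± 120 FPKM, while Nppb was at 13.0, 15.5 and 18.1 FPKM and Myh4 at 28.1, 4.33 and 2.34 FPKM. Myh4 was high in replicate 1 alone, and the ranges of Myh4 and Nppb overlapped.

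Receptors for the growth factors that keep sensory neurons alive were among the moderately high genes. Of 18 receptors, 16 reached 1 FPKM and 3 reached 100 FPKM. Ntrk2, the receptor of brain-derived neurotrophic factor, was at 17.2, 17.0 and 17.7 FPKM, and Ntrk3, the receptor of neurotrophin-3, at 6.35, 6.66 and 5.21 FPKM. The ranges of Ntrk2 and Ntrk3 did not overlap. Ngfr, the low-affinity receptor that neurons and Schwann cells share, was at 179, 209 and 157 FPKM. Ret, the signalling receptor of the GDNF family, was at 98.0, 110 and 95.6 FPKM. Among its co-receptors, Gfra2 was at 47.9 ± 1.5, Gfra1 at 31.4 ± 2.00, Gfra3 at 20.9 ± 1.91 and Gfra4 at 7.47 ± 1.07 FPKM, again without overlap of their ranges. Il6st, the shared receptor of the interleukin-6 family, was at 77.3 ± 5.08 FPKM. The lowest of the list were Egfr and Met, at 0.610 ± 0.141 and 0.554 ± 0.121 FPKM.

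Markers of each class of sensory neuron that the lists covered were detected. All 22 non-peptidergic nociceptor and itch genes and all 18 genes of large-diameter neurons reached 1 FPKM, as did 17 of 18 peptidergic nociceptor genes, 8 of 9 genes of C-fibre mechanoreceptors and 5 of 6 genes of cold-sensing neurons. Mrgprd, a receptor of non-peptidergic nociceptors, was at 53.0, 56.9 and 51.4 FPKM. Mrgpra3, the chloroquine receptor of itch neurons, was at 7.61, 9.32 and 10.1 FPKM. Pvalb, a calcium buffer of proprioceptors, was at 165, 128 and 124 FPKM. Th, which makes a dopamine precursor in C-fibre mechanoreceptors, was at 22.6, 30.2 and 20.4 FPKM, and Fam19a4, a secreted protein of the same neurons, at 20.9, 26.2 and 23.5 FPKM. Levels of marker genes are no shares of neurons, since they depend on the RNA each neuron holds. Th is also a sympathetic gene. Of the 14 genes of the sympathetic list, 5 reached 1 FPKM and 7 were under 0.1 FPKM. Of all 45904 identifiers, 18686 were at 0.1 FPKM or more, so such low values were not particular to this list. Among the 7 was Slc6a2, the noradrenaline transporter, at 0.0574 ± 0.0272 FPKM.

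Sodium channels, which carry the action potential, were led by members typical of sensory neurons. Scn10a, the tetrodotoxin-resistant channel of nociceptors (chromosome 9, 119608456 to 119719322), was at 125, 159 and 117 FPKM and was the highest pore-forming subunit. Scn11a, a channel that sets nociceptor resting excitability, was at 66.8, 76.8 and 67.0 FPKM. Scn9a, whose loss abolishes pain in people, was at 37.0, 34.4 and 34.9 FPKM. These ranges of Scn10a, Scn11a and Scn9a did not overlap. Scn7a, a sodium channel relative that is also found in Schwann cells, was at 67.9, 57.8 and 64.6 FPKM and overlapped Scn11a. Scn8a and Scn1a, channels of myelinated axons and large neurons, were at 18.3 ± 0.987 and 16.6 ± 0.916 FPKM. The central channel Scn2a and the embryonic channel Scn3a were at 1.39 ± 0.0589 and 0.410 ± 0.0263 FPKM.

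Of 29 potassium and pacemaker channel genes, 28 reached 1 FPKM. Kcnab2, an auxiliary subunit, was the highest at 174, 190 and 167 FPKM. Kcna1 and Kcna2, the channels beside the nodes of Ranvier, were at 75.4 ± 4.72 and 38.2 ± 2.23 FPKM. Kcnk18, a background channel of nociceptors, was at 4.14 ± 0.348 FPKM, and Kcna3, a channel better known from lymphocytes, was the lowest at 0.360 ± 0.0112 FPKM. Hcn2, a pacemaker channel involved in inflammatory pain, was at 35.6, 37.6 and 32.8 FPKM. Hcn3 was at 5.13 ± 0.565 and Hcn4, the channel of the sinus node, at 1.98 ± 0.429 FPKM, and none of these 3 ranges overlapped.

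Calcium channel genes were lower, with 11 of 16 at 1 FPKM or more and a median of 5.05 FPKM. The cytoplasmic subunit Cacnb3 was the highest at 96.1, 119 and 97.2 FPKM. Cacna2d1, the subunit that gabapentin binds, was at 36.4, 34.9 and 32.9 FPKM. Cacna1b, the pore of the N-type channel that releases transmitter from nociceptors, was at 13.8, 15.7 and 12.2 FPKM, above Cacna1a (6.55 ± 0.691 FPKM) and Cacna1c (5.10 ± 0.519 FPKM). Among the T-type pores, Cacna1h was at 3.98 ± 0.879 FPKM and Cacna1g, the lowest of the list, at 0.179 ± 0.0314 FPKM.

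Channels that turn a stimulus into a current ranged from 95.8 to 0.149 FPKM, and 19 of 24 reached 1 FPKM. P2rx3, an ATP-gated channel of nociceptors, was at 93.7, 97.9 and 95.7 FPKM, above the range of all the others. Asic3, an acid-sensing channel, was at 38, 42.8 and 34.0 FPKM, and Trpv1, the capsaicin and heat receptor, at 36.6, 38.2 and 28.6 FPKM. Piezo2, the channel of touch and proprioception, was at 29.6, 29.9 and 26.7 FPKM, and the range of Trpv1 overlapped those of both Asic3 and Piezo2. Its relative Piezo1, known from vessels and red cells, was at 0.594 ± 0.101 FPKM. Trpa1, the receptor of mustard oil, was at 17.8, 17.0 and 18.9 FPKM. Trpm8, the receptor of cold and menthol, was at 8.93, 9.44 and 7.59 FPKM. The lowest was Trpv3, a heat-sensitive channel of skin keratinocytes, at 0.149 ± 0.00564 FPKM.

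**Figure D3:**
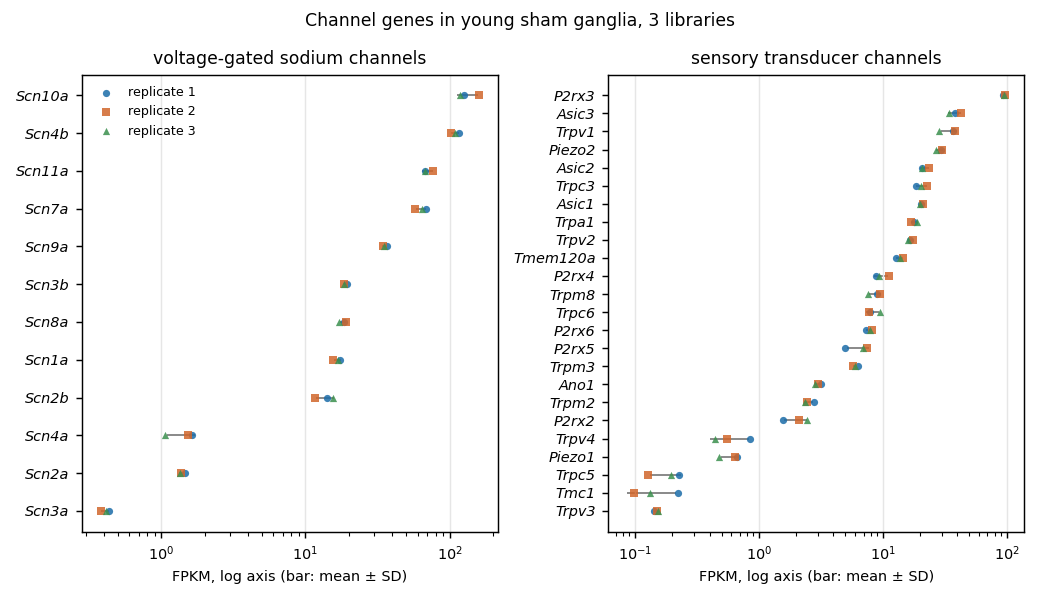
12 of the 14 sodium channel genes (left) and the 24 sensory transducer channel genes (right), 1 row per gene, with FPKM on a horizontal log axis. Symbols are the 3 libraries and grey bars the mean ± SD; Scn10a leads the pore-forming sodium channels at 117 to 159 FPKM, and P2rx3 stands alone at 93.7 to 97.9 FPKM among the transducers.

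Transmitter genes were those of glutamate neurons. The vesicular glutamate transporters Slc17a6 and Slc17a7 were at 72.2 ± 1.81 and 72.4 ± 4.36 FPKM, with overlapping ranges, and Slc17a8, the form in C-fibre mechanoreceptors, was at 3.52 ± 0.328 FPKM. The GABA-making enzymes Gad1 and Gad2 were at 0.104 ± 0.0452 and 0.0142 ± 0.0137 FPKM, and Slc32a1, the vesicular transporter of GABA and glycine, was listed at 0. Grik1, a kainate receptor subunit, was the highest receptor of the list at 84.8, 94.7 and 99.0 FPKM. Htr3a, a serotonin-gated channel, was at 49.5, 73.2 and 57.6 FPKM. Among the opioid receptors, Oprl1 was at 7.01 ± 0.414, Oprd1 at 4.36 ± 0.594, Oprm1, the morphine receptor, at 1.78 ± 0.338 and Oprk1 at 0.352 ± 0.0473 FPKM. Their ranges did not overlap.

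The sodium-potassium pump, which neurons and glia both use, was high, and all 15 genes of the ion pump list reached 1 FPKM. Atp1b1, a beta subunit of the pump, was at 644, 622 and 656 FPKM. Fxyd2, a regulatory subunit, was at 740, 897 and 771 FPKM, above the range of Atp1b1. The other beta subunits, Atp1b3 and Atp1b2, were at 203 ± 7.42 and 19.1 ± 0.307 FPKM, and the ranges of the 3 beta subunits did not overlap.

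Of 21 satellite glia genes, 19 reached 1 FPKM and 15 reached 10 FPKM, with a median of 19.1 FPKM. Apoe, a lipid carrier made by satellite glia and macrophages (chromosome 7, 19696109 to 19699188), was at 1166, 1241 and 1090 FPKM. Fabp7, a fatty acid carrier of these glia, was at 206, 200 and 263 FPKM, highest in replicate 3. Glul, which makes glutamine from glutamate, was at 102, 100.5 and 105 FPKM. Kcnj10, the potassium channel by which glia buffer potassium, was at 18.7, 16.8 and 20.3 FPKM, and Gja1, a gap junction protein, at 14.4, 10.6 and 15.1 FPKM. Gfap, the filament of reactive glia, was the lowest of the list at 0.360, 0.381 and 0.595 FPKM. Of the 21 genes, 14 were lowest in replicate 2.

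Myelin genes were all well above the detection level, with 24 of 24 at 1 FPKM or more, 21 at 10 FPKM or more and a median of 33.6 FPKM. Pmp22, a membrane protein of compact myelin, was at 1019, 879 and 910 FPKM. Mbp, which holds the cytoplasmic faces of the membrane together, was at 236, 214 and 230 FPKM. Prx, a scaffold protein specific to Schwann cells, was at 84.3, 71.6 and 76.3 FPKM. Mag, an adhesion protein next to the axon, was at 10.8, 9.41 and 10.7 FPKM. The lowest of the list was Gjb1, the gap junction protein of Schwann cells, at 6.26, 6.88 and 6.67 FPKM. Replicate 2 was lowest in 19 of the 24 genes, and the sum of the list was 3991, 3459 and 3717 FPKM.

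Among the factors of the Schwann lineage, 17 of 18 reached 1 FPKM, with a median of 5.19 FPKM. S100b, a calcium-binding protein of glia, was the highest at 544, 514 and 570 FPKM. Sox10, the transcription factor that glia of the peripheral nerves need, was at 26.1, 29.2 and 27.9 FPKM. Egr2, which switches on myelin genes, was at 4.51, 3.50 and 4.30 FPKM, and Pou3f1, which acts before it, at 1.64, 1.74 and 2.05 FPKM. Tfap2a, a factor of Schwann cell precursors, was the lowest at 0.543 ± 0.130 FPKM. Of 14 genes of non-myelinating and repair Schwann cells, 9 reached 1 FPKM and 6 reached 10 FPKM, with a median of 7.0 FPKM. L1cam, an adhesion protein of this list that neurons also make, was at 45.2 ± 6.19 and Shh, a secreted signal, at 5.62 ± 1.30 FPKM. The growth factor genes Gdnf and Artn were at 0.0526 ± 0.0310 and 0.0223 ± 0.0386 FPKM. Of the myelin genes of oligodendrocytes, Mog and Mobp were at 0.0806 ± 0.0300 and 0.104 ± 0.0657 FPKM, and Opalin was listed at 0.

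Connective tissue genes followed. All 28 fibroblast and matrix genes reached 1 FPKM, with a median of 10.8 FPKM. Sparc, a matrix protein that satellite glia also make, was at 375, 299 and 360 FPKM, and Dcn, a small proteoglycan, at 238, 214 and 251 FPKM. The fibrillar collagens were lower, with Col3a1 at 15.8 ± 1.31 and Col1a1 at 12.7 ± 0.511 FPKM, whose ranges did not overlap. Col6a3 was the lowest at 1.20 ± 0.204 FPKM. Replicate 2 was lowest in 20 of the 28 genes. In the perineurial and leptomeningeal list, 12 of 16 genes reached 1 FPKM. Ptgds, a prostaglandin synthase of the meninges, was at 169, 76.3 and 152 FPKM and lowest in replicate 2. Cldn1, a tight junction protein of the perineurium, was at 10.2, 8.10 and 9.93 FPKM.

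Vascular genes were lower than neuronal and glial genes but nearly all present, with 30 of 32 endothelial genes at 1 FPKM or more and a median of 6.10 FPKM. Ackr1, a chemokine-binding receptor of venules (chromosome 1, 173331886 to 173333750), was the highest at 79.5, 77.7 and 71.3 FPKM. Cldn5, the tight junction protein of blood-nerve and blood-brain barriers, was at 12.2, 11.7 and 10.8 FPKM. Plvap, a protein of fenestrated vessels, was at 8.32, 7.71 and 6.58 FPKM, so that genes of tight and of leaky vessels were both present. Cdh5 and Pecam1, adhesion proteins of all endothelium, were at 6.71 ± 0.547 and 6.07 ± 1.24 FPKM. Kdr, the main receptor of vascular endothelial growth factor, was at 2.01 ± 0.238 FPKM, and Nos3, which makes nitric oxide, was the lowest at 0.610 ± 0.214 FPKM. Of the 32 genes, 22 were highest in replicate 1. Fabp4, a lipid carrier of capillaries and of fat cells, was at 57.4, 23.5 and 6.61 FPKM. It took the same order over the replicates as Ackr1, Cldn5 and Plvap but fell much further.

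Of 17 mural cell genes, 14 reached 1 FPKM, with a median of 1.69 FPKM. Rgs5, a marker of pericytes, led at 57.9, 55.3 and 61.0 FPKM. Acta2 and Myh11, contractile proteins of smooth muscle, were at 11.1 ± 3.70 and 2.71 ± 0.930 FPKM and were highest in replicate 1. Higd1b, another pericyte gene, was the lowest at 0.772 ± 0.164 FPKM. Of 7 lymphatic genes, 3 reached 1 FPKM. They were Pdpn, Lyve1 and Reln, at 11.1 ± 1.11, 2.43 ± 0.0507 and 2.00 ± 0.520 FPKM, all of which other cells also make. Prox1, the factor that makes lymphatic endothelium, was at 0.0390 ± 0.00832 FPKM. Ccl21a was listed at 0 but has near-identical copies, so its value is uncertain.

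Immune genes were the lowest of the 5 tissue classes by the median over the class. The list medians were 5.89 FPKM for complement, 3.50 for antigen presentation, 2.94 for neutrophils, 2.56 for mast cells, 2.43 for macrophages, 0.884 for B and plasma cells and 0.144 for T, NK and innate lymphoid cells, against 1.69 FPKM for the mural cell list. Of 27 macrophage genes, 23 reached 1 FPKM. Apart from Apoe, the highest was Lyz2, the myeloid lysozyme, at 50.8, 49.6 and 57.7 FPKM. C1qa, a complement protein of macrophages, was at 12.7, 15.9 and 14.5 FPKM. Csf1r, the growth factor receptor macrophages depend on, was at 3.8, 3.56 and 3.47 FPKM, Cx3cr1, the fractalkine receptor, at 2.01, 2.11 and 2.71 FPKM, and Trem2, a lipid-sensing receptor, was the lowest at 0.224 ± 0.0888 FPKM. Antigen presentation was represented by B2m, the light chain of class I molecules, at 258, 219.6 and 223 FPKM and by Cd74, the class II chaperone, at 40.9, 40.7 and 36.5 FPKM. Values of single class I and class II genes are uncertain because their sequences are alike.

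No gene of the T, NK and innate lymphoid list reached 1 FPKM, out of 19. The highest was Trac, the constant region of the T cell receptor alpha chain, at 0.918, 1.56 and 0.217 FPKM. Cd3e, a signalling chain of the same receptor, was at 0.0528, 0.0560 and 0 FPKM, below the level of 3 fragments in a gene of 2000 bases. Of 13 B and plasma cell genes, 6 reached 1 FPKM. Ighm, the heavy chain of IgM, was at 26.1, 20.6 and 25 FPKM, while Cd79a, a signalling chain of the B cell receptor, was at 0.781, 1.21 and 1.35 FPKM. In the neutrophil list, 11 of 15 reached 1 FPKM, led by S100a9 and S100a8, calcium-binding proteins of neutrophils, at 66.3, 75.8 and 114 FPKM and at 44.9, 54.4 and 75.2 FPKM. Of the 15 genes, 11 were highest in replicate 3. Kit, a receptor of mast cells that sensory neurons also make, was at 11.3 ± 1.21 FPKM, and Mcpt4, a protease specific to mast cells, at 2.37, 3.98 and 4.71 FPKM.

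**Figure D4:**
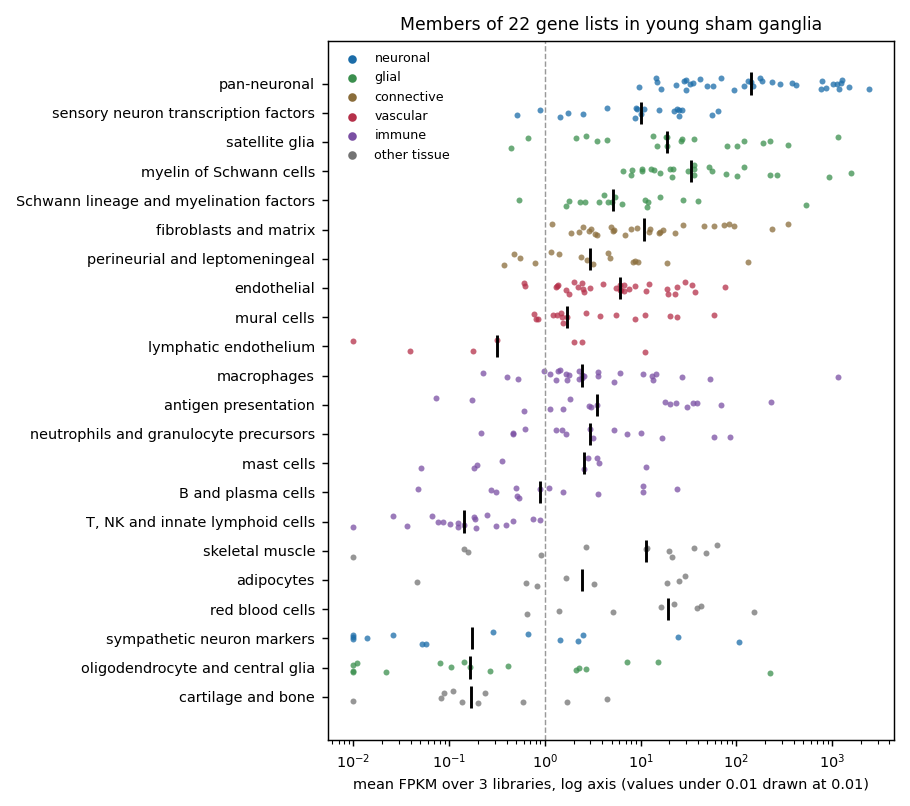
Members of 22 gene lists, 1 row per list, with the mean FPKM of each gene over the 3 libraries on a horizontal log axis. Points are genes coloured by class, black ticks the list medians and the dashed line 1 FPKM; pan-neuronal genes have the highest median (142 FPKM) and every T, NK and innate lymphoid gene lies to the left of the line.

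The classes can be set side by side over the genes that belong to 1 class alone, with all identifiers at 1 FPKM or more as background (median 7.81 FPKM, quartiles 3.19 and 19.7 FPKM). The median was 13.2 FPKM over 241 neuronal genes, 9.34 over 76 glial genes, 5.12 over 39 connective tissue genes, 2.53 over 50 vascular genes and 1.55 over 106 immune genes. At least 100 FPKM was reached by 34 neuronal, 10 glial, 2 connective tissue, 0 vascular and 1 immune genes. The classes held 6.10%, 1.54%, 0.262%, 0.122% and 0.268% of the summed FPKM. In each library the medians followed the same order. The order is that of the genes chosen for the lists, which include genes of cells that are rare here, and it is no share of cells.

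Of 29 genes known to respond to nerve injury, 22 reached 1 FPKM in the sham-operated ganglia, against 12000 of all 21186 protein-coding genes. Within the list, 12 reached 10 FPKM and 2 reached 100 FPKM, with a median of 5.39 FPKM. Atf3, the transcription factor that marks neurons with a cut axon, was at 23.5, 42.3 and 16.3 FPKM. Gal, a peptide made after injury, was at 18.2, 25.9 and 16.4 FPKM, Jun, a partner of Atf3, at 29.3, 45 and 28.0 FPKM, and Sprr1a, a protein of regrowing axons, at 2.45, 3.69 and 1.11 FPKM. Replicate 2 was the highest in each of these 4 genes, which do not stand for the whole list. Vgf, a granule peptide whose gene responds to neuronal activity, was at 26.9, 62.3 and 28.0 FPKM. Gap43, the growth cone protein, was high at 181, 184 and 167 FPKM with less spread. Over the 28 genes of the list at 0.1 FPKM or more, 13 were highest in replicate 2, 11 in replicate 1 and 4 in replicate 3. Replicate 3 was lowest in 18 of them. Among 20 immediate early genes, which respond within minutes to stimulation, 16 reached 1 FPKM and Fos was at 1.87, 2.70 and 2.44 FPKM. Mki67, a protein of dividing cells, was at 0.647, 0.487 and 0.702 FPKM.

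Genes of muscle and fat were prominent among those that varied most between the libraries. Of the 20 identifiers with the highest coefficient of variation among those at 10 FPKM or more, 16 had a symbol, 10 stood in the muscle or adipocyte lists, and 14 were highest in replicate 1 and lowest in replicate 3. Acta1, the actin of skeletal muscle, was at 107, 67.4 and 12.8 FPKM. Ckm, the muscle creatine kinase, was at 39.0, 16.4 and 3.86 FPKM. The muscle list summed to 387, 214 and 42.6 FPKM, and 10 of its 11 genes above 0.1 FPKM were lowest in replicate 3. Adipoq, a hormone of fat cells, was at 6.65, 2.85 and 0.259 FPKM, and all 7 adipocyte genes above 0.1 FPKM were highest in replicate 1 and lowest in replicate 3. Cfd, a complement enzyme that fat cells make, was at 52.8, 20.1 and 3.30 FPKM.

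Red blood cell genes took another order. Hbb-bs, an adult beta-globin, was at 79.4, 158 and 224 FPKM, and the list summed to 152, 301 and 393 FPKM, lowest in replicate 1. Alas2, the first enzyme of heme synthesis in red cells, was at 3.6, 5.39 and 6.45 FPKM. Globin genes have near-identical copies, so their single values are uncertain. Leaving out 1 library moved the mean of 17 of the described identifiers at 1 FPKM or more by over 1.5 times, among them Acta1 (62.3 to 40.1 FPKM without replicate 1), Ckm (19.8 to 10.1), Fabp4 (29.2 to 15.1), Cfd (25.4 to 11.7), Adipoq (3.25 to 1.56) and Myh4 (11.6 to 3.34), and Mb, the oxygen store of muscle (11.5 to 6.44 without replicate 2). Most of the transcriptome did not share this: 55 of the 5765 identifiers at 10 FPKM or more (0.954%) had a coefficient of variation over 30%.

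**Figure D5:**
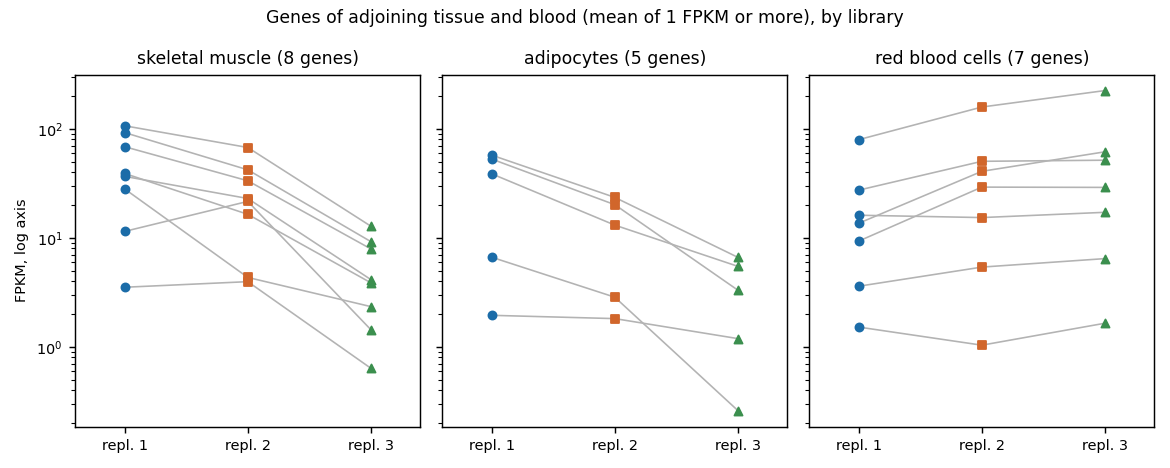
Skeletal muscle, adipocyte and red blood cell genes with a mean of 1 FPKM or more, with the 3 libraries on the horizontal axis (which have no order) and FPKM on a vertical log axis. Grey lines join the values of 1 gene; all 8 muscle and all 5 adipocyte genes shown are lowest in replicate 3, while the 4 globin genes are lowest in replicate 1.

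At the other end, the steadiest genes at 100 FPKM or more varied by less than 1% between libraries. Cnbp, a nucleic acid binding protein, was at 117.5, 117.5 and 117.2 FPKM, Clip3, a microtubule-associated protein, at 126.9, 126.8 and 127.2 FPKM, and Snx3, a sorting protein of endosomes, at 113.7, 114.3 and 114.0 FPKM. Their spread was below the counting error at that level, and they were the extreme of many genes. Pirt, a membrane protein of sensory neurons that regulates Trpv1, was also steady at 321, 316 and 322 FPKM. Of the genes in common use as a reference, Eef1a1 was at 312 ± 6.77, Actb at 236 ± 12.9 and Hprt at 196 ± 8.98 FPKM.

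Lists of energy metabolism and antioxidant defence had the highest medians after the pan-neuronal one. Nuclear genes of oxidative phosphorylation had a median of 101 FPKM over 20 genes, led by Ndufa4, a respiratory chain subunit, at 730, 762 and 839 FPKM. Glycolysis and energy carrier genes had a median of 88.4 FPKM over 14 genes, and Aldoa, the aldolase, was at 537, 609 and 477 FPKM. Of these 14 genes, 13 were highest in replicate 2. So were 21 of the 35 pan-neuronal genes, 11 of the 20 oxidative phosphorylation genes and 12 of the 19 iron and antioxidant genes. Other lists went the other way, with 19 of the 24 myelin genes and 20 of the 28 fibroblast and matrix genes lowest in replicate 2. Without the share over all identifiers, these counts cannot be read as a trait of the lists. Iron and antioxidant genes had a median of 77.8 FPKM over 19 genes, all of which reached 10 FPKM. Cholesterol synthesis had a median of 39.6 FPKM over 18 genes, with Hmgcs1, an early enzyme of the pathway, at 272, 269 and 278 FPKM and Lss, the cyclase that forms the sterol rings, the lowest at 5.76 ± 0.159 FPKM.

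Some genes that every cell uses were listed at very low values, which limits what a low value shows. Gapdh, a glycolytic enzyme, was at 0.477, 0.526 and 0.564 FPKM, and Ppia, a prolyl isomerase, at 1.12, 1.86 and 1.46 FPKM. Tpt1, an abundant protein of growing cells, was at 0.988, 1.39 and 0.715 FPKM, while its processed pseudogene Tpt1-ps3 was at 838, 797 and 876 FPKM. Of 75 ribosomal protein genes, 45 were under 10 FPKM and 6 at 100 FPKM or more, with a median of 4.48 FPKM. Among 39 processed pseudogenes at 50 FPKM or more whose parent gene was in the table, 38 were above the parent, and 18 of the parents were under 10 FPKM. Rps16-ps2, a copy of a ribosomal protein gene, was at 209 ± 27.0 and its parent Rps16 at 0.406 ± 0.0347 FPKM. Processed pseudogenes held 8.30% of the summed FPKM, and 71 of them reached 100 FPKM. Genes with near-identical copies are thus uncertain here, and how fragments that fit more than 1 copy were handled was not given in the sources used here.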

How the data were processed

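Whole sciatic dorsal root ganglia were sequenced after poly(A) selection, and the authors deposited 1 table of FPKM values, per the file headers. The submitters' processing notes name the build mm10 and FastQC 0.10.1, limma 3.22.7, HTSeq 0.6.0, R 3.1.1, Bowtie2 2.2.3, edgeR 3.8.6, TopHat2 2.0.12 and SAMtools 0.1.19, without the step of each. The annotation release, the use of strand and the treatment of multiply aligned fragments were not given in the sources used here. Without stated strand, overlapping and antisense genes cannot be told apart.

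The 3 young sham columns were matched to their samples by title, and 0 columns of unknown sample were left out. Symbols, biotypes, exon lengths and positions came from GENCODE M21 (36639 of 45904 identifiers had a symbol). Means, SDs, ranks and medians were computed in Python 3.11.15 with pandas 2.3.3 and NumPy 2.4.6, with no filter unless stated and no test. The 49 lists (785 distinct genes, 7 names unmatched) and the description itself were chosen with earlier results of these data known. The naming rule took the 50 highest identifiers, the highest and lowest members of each list, members listed at 0, the 20 most variable identifiers at 10 FPKM or more and the 10 steadiest at 100 FPKM or more. Other genes were named for their role after their values were seen. Some genes that the rule selects are not reported here, though list counts and medians include them.

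Depth was estimated from the most frequent product of FPKM and exon length, taken as 1 fragment. At this step 11414 of 21352 identifiers (53.5%) gave whole fragments within 0.001, so the depth is approximate and may include a scaling factor. Scripts were tested on simulated data. Alternatives changed the detection level, the scaling, the pseudocount, a filter on low values and the libraries included.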

Additional observations from a re-analysis of the deposited data

How the results depend on the processing

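The number of identifiers at 1 FPKM or more was 15082 at a level of 0.5 FPKM, 11588 at 2 FPKM, 12906 when required in each library, 15985 after rescaling each library to a sum of 1000000, 13085 with a symbol, and 13423 to 13462 with a replicate left out. Without mitochondrial genes the 10 highest identifiers held 4.57% of the sum and the 100 highest 19.3%. Rescaling multiplied values by 2.93 to 2.99 and brought the class medians to 39.0 (neuronal), 27.6 (glial), 15.2 (connective), 7.47 (vascular) and 4.58 (immune). With members at 0.1 FPKM or more alone, the neuronal, glial and immune medians were 14.6, 12.8 and 1.79 FPKM. Geometric means with a pseudocount of 0.1 were 9.98, 6.73, 6.58, 3.15 and 1.73 FPKM in the class order above, and with a pseudocount of 1 the last 3 were 7.52, 3.86 and 2.59 FPKM. With a replicate left out, the neuronal median ranged from 12.8 to 13.3 FPKM and the glial from 8.45 to 9.65 FPKM. The order of the classes was the same in all 8 settings. These include the values as deposited and the rescaling, which by its nearly constant factor could hardly change the order.

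Rescaling moved each of 833 gene levels and 49 list medians by more than the spread between replicates, and none of the 20 coefficients of variation. Its factors of 2.93 to 2.99 are nearly constant, so this outcome was largely fixed in advance. Leaving out a replicate moved 51 of 2499 gene levels and 8 of 147 list medians. Levels near 0.1 FPKM rest on a few fragments. No paired analysis was possible because a description of 1 group has no pairs.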

Other observations

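Several lists outside the main tissue classes had members that stood apart from the rest of their list. In the melanocyte list, Tyrp1, an enzyme of melanin synthesis, was at 7.29, 4.61 and 7.03 FPKM, while Pmel, a melanosome protein, was at 0.241 ± 0.0279 FPKM and Tyr, the first enzyme of the pathway, was listed at 0 in each library. In the cartilage and bone list, Ibsp, a bone matrix protein, was at 4.77, 2.995 and 5.50 FPKM, while Col2a1 and Acan, the main proteins of cartilage matrix, were at 0.201 ± 0.0390 and 0.110 ± 0.0117 FPKM. In the complement list, Clu, a secreted chaperone, was at 106, 107 and 98.1 FPKM, while the activating factor Cfb was at 0.0385 ± 0.0162 FPKM.

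Of 11 long noncoding RNAs, 4 names of the list being unmatched in addition, 9 reached 1 FPKM. Rian, an imprinted transcript, was the highest at 19.7, 17.4 and 20.6 FPKM and overlapped H19, another imprinted transcript, at 20.7, 17.0 and 17.1 FPKM. Malat1, a nuclear RNA, was at 9.29, 8.998 and 14.1 FPKM, highest in replicate 3. Of 22 mitochondrial transfer RNA genes, 1 reached 1 FPKM: mt-Tp, at 667 ± 128 FPKM. This gene is 67 bases long, shorter than the 100 read cycles, and its values stood for 581, 454 and 598 fragments. After poly(A) selection and without stated strand, these fragments need not come from the transfer RNA.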
